A study of Mus musculus with 6 samples.

Results

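The 9 genes described here encode nuclear receptors that are studied in cortical patterning and neuronal maturation: Nr2f1, Nr2f2, Rora, Rorb, Thra, Thrb, Rarb, Rxrg and Esrrg. They were chosen as a named list, and every probe set annotated to exactly 1 of these symbols was taken. This gave 28 probe sets of 34945 with 1 gene symbol, and 9 genes of 18193. Each was measured on 6 expression arrays of corticothalamic projection neurons from C57BL/6 mice, with 2 arrays at each of 3 stages named E18, P3 and P6. Per the labels' protocols, these neurons, which send axons from the cortex to the thalamus, were marked by green fluorescent microspheres placed in the thalamus. The injection was made at E17.5, P1 or P4, the cortex was taken at E18.5, P3 or P6, and marked cells were sorted by fluorescence. No transgene, mutation or untreated control group is in the labels. The interval from injection to collection was 1 day at E18 and 2 days at the later stages, so labelling time and the step from E18 cannot be told apart. Whether paired arrays hold different mice or different sorts is not in the labels, and the p-values then cover only array-to-array spread, which may be technical.

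Nuclear receptors are transcription factors that bind DNA through a zinc finger domain, and many are switched by a small lipophilic ligand. The COUP-TF proteins made from Nr2f1 and Nr2f2 help to set area identity in the cortex and mark interneurons of the caudal ganglionic eminence. RORβ, from Rorb, is known for its part in layer 4 identity, while thyroid hormone receptors (Thra, Thrb), retinoid receptors (Rarb, Rxrg) and the orphan receptor ERRγ (Esrrg) are linked to timing, differentiation and oxidative metabolism in neurons. Many of these proteins recognise the half-site AGGTCA, alone or as a repeat, and some of their own genes are targets of the family.

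Promoter windows of RefSeq (GRCm38.p6), from 250 bases before to 50 bases after an annotated start, were matched for 8 of the 9 genes, all but Thra, as 15 windows. Both strands were searched for AGGTCA, for AAGGTCA, the longer form that ROR and ERR proteins bind as monomers, and for GTTCA repeated after any 6 bases, the direct repeat of the retinoic acid response element for which Rarb is known. The longer form contains the half-site. The half-site was found in 2 of the 15 windows, 1 of Thrb and 1 of Rxrg, against 16.3% of all 32851 windows. The longer form was found in 1 window, of Rxrg, against 4.72% of all windows. The direct repeat was found in 1 window, of Rarb, and in 25 windows, or 0.0761%, of all. The Rarb window below is shown because it carries the repeat that defines Rarb as a retinoid target gene. The Rxrg window is shown because it alone of the 15 carries the ROR and ERR form. The Rarb stretch is the 100 bases before the start, chr14:16575477-16575576 on the minus strand, with the repeat in capitals from position -52. The Rxrg stretch is the 250 bases before the start, chr1:167618015-167618264 on the plus strand, with the longer form in capitals from position -89. A match describes the letters and is not a binding site measured in these cells.
Rarb: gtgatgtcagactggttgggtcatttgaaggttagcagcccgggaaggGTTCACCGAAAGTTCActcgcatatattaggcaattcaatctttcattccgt
Rxrg: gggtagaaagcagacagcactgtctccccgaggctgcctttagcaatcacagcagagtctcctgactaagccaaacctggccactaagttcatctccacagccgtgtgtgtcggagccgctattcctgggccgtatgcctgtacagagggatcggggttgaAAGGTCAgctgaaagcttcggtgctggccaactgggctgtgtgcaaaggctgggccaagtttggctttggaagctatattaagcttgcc

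The values are log2 expression from the authors' deposited table. Differences below are in log2 units with their SE, from a limma fit of stage means over all 34945 probe sets, and a change was called at a Benjamini-Hochberg adjusted p below 0.05. The E18 pair was far more alike than the later pairs. Its correlation was 0.998, its differences had an SD of 0.13, and 0 probe sets were over 2-fold apart. The P3 pair gave 0.961, 0.57 and 3664, and the P6 pair gave 0.976, 0.46 and 1710. All calls against E18 were therefore repeated with the E18 pair averaged to 1 array. Spiked hybridization controls averaged 9.25 to 9.59 at E18, 11.59 to 11.72 on the P3 pair, with 13.01 and 9.85 on the P6 pair. The 18S control signal reached 14.22 on P3 replicate 2 and 13.92 on P6 replicate 1 and ranged over 11.32 to 11.83 on the other 4. The 3' over 5' difference of Actb, a sign of RNA length, was 0.56 and 0.58 at E18 and 0.82 to 1.76 later. Markers of corticothalamic and layer 6 neurons rose between E18 and P3 for 10 of 12 genes and fell for 1. Markers of cortical progenitors and dividing cells averaged 11.32 on both E18 arrays and 6.64 to 6.98 on the other 4, with 11 of 13 lower at P3, although the label at E18 is the same neuron type. Of all genes, by the brightest probe set of each, 12.1% were higher and 18.3% lower at P3. In bulk samples, fewer cells of a type and less RNA per cell cannot be told apart.

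**Figure D1:**
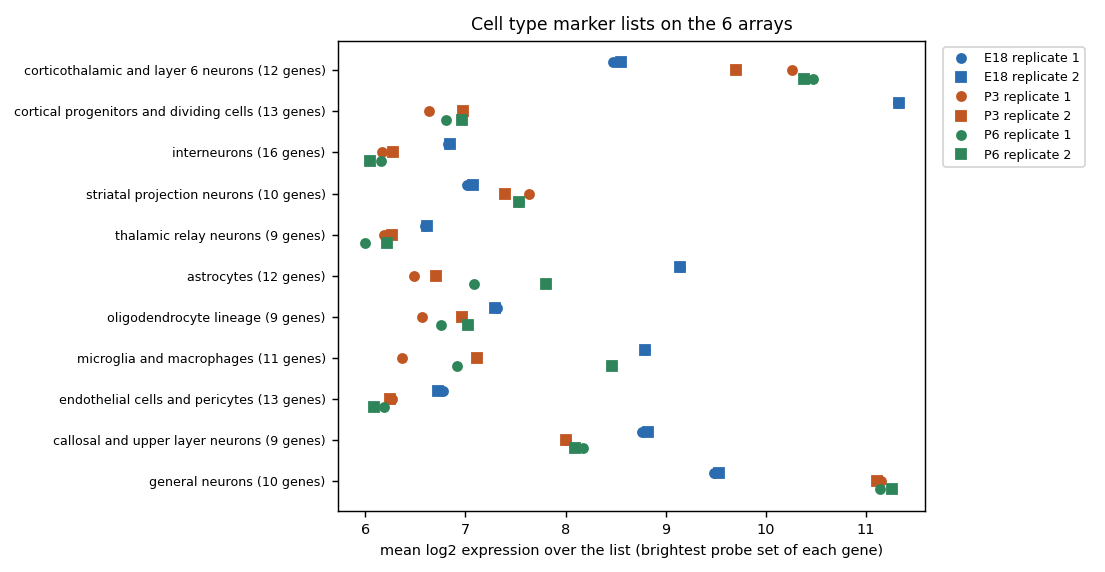
Mean log2 expression of each cell type marker list (x axis, brightest probe set of each gene) on each array, coloured by stage, with circles for replicate 1 and squares for replicate 2. The progenitor list lies at 11.32 on both E18 arrays and between 6.64 and 6.98 on the later arrays, and the general neuron list lies lower at E18 than later.

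Between E18 and P3, 9 of the 28 probe sets were called, or 32.1%, against 28.6% of all probe sets. They belonged to 6 genes. Of these, 4 were higher at P3, against a background of 11.5%, and 5 were lower, against 17.1%. Between E18 and P6, 9 of 28 were again called, against 21.1% of all: 3 higher, with a background of 8.76%, and 6 lower, with a background of 12.4%. Between P3 and P6, 0 of 28 were called by limma, as were 0 of all 34945 probe sets. At an unadjusted p below 0.05, 5 of the 28 and 5392 of all differed in that interval. The median difference of the 28 was 0.06 from E18 to P3, -0.15 from P3 to P6 and -0.06 from E18 to P6, against 0.11, 0.02 and 0.11 for all probe sets. The E18 and P3 arrays did not overlap for 21 of 28 probe sets, against 77.9% of all, the P3 and P6 arrays for 15, against 40.3%, and the E18 and P6 arrays for 23, against 75.7%. With the E18 pair averaged, 5 probe sets were called from E18 to P3: 1 higher and 4 lower, against 8.86% of all. The change from P3 to P6 minus the change from E18 to P3, a test of whether the 2 intervals differed, was called for 6 of 28, against 12.1% of all: 4 above 0, with a background of 8.87%, and 2 below, with a background of 3.26%.

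**Figure D2:**
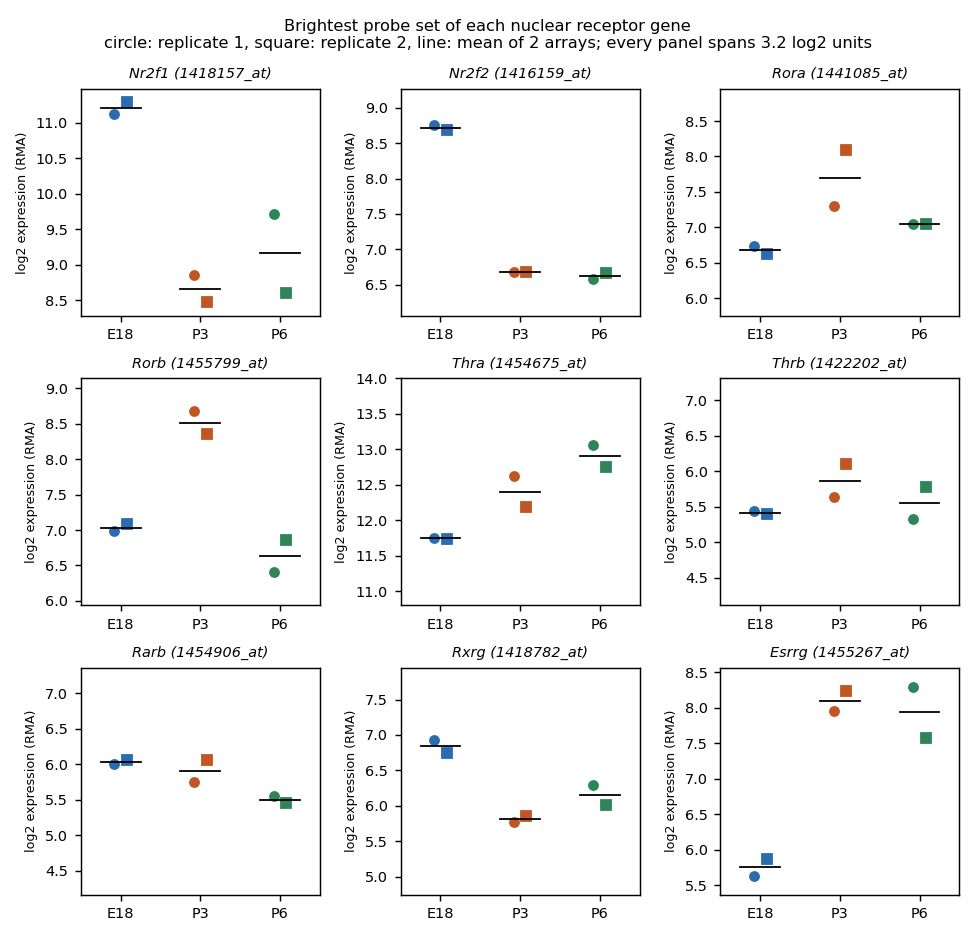
Log2 expression (y axis) of the brightest probe set of each of the 9 genes on the 6 arrays by stage (x axis); each panel has its own range of 3.2 log2 units and the line is the mean of 2 arrays. Nr2f1 and Nr2f2 are highest on the E18 arrays, Esrrg is lowest there, Rorb and Rora peak at P3 and Thra is highest at P6.

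Nr2f1 and Nr2f2, the COUP-TF genes, fell between E18 and P3 and were also lower at P6 than at E18. Nr2f1 was measured by 1 probe set (1418157_at), at 11.13 and 11.29 (E18), 8.86 and 8.47 (P3) and 9.72 and 8.60 (P6). Both E18 arrays stood above all later arrays, and the P3 values lay on both sides of the lower P6 array, with P6 the more scattered stage (SD 0.80, n = 2). Nr2f1 fell by 2.55 (SE 0.39; limma adjusted p = 0.00454) from E18 to P3, which is 5.84-fold, and the difference from P3 to P6 was 0.49 (SE 0.39; limma adjusted p = 0.56). From E18 to P6 it fell by 2.05 (SE 0.39; limma adjusted p = 0.0108). The fall to P3 was called in all 18 alternative settings. The fall to P6 was not called with the E18 pair averaged (limma adjusted p = 0.064; range over the alternatives 0.00026 to 0.0737), nor without E18 replicate 1 (-2.13, 0.0552) or E18 replicate 2 (-1.97, 0.0737).

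The brightest Nr2f2 probe set (1416159_at) read 8.75 and 8.68 (E18), 6.69 and 6.69 (P3) and 6.58 and 6.67 (P6). The later 4 arrays lay within a narrow band far below the E18 pair. The fall from E18 to P3 was 4.08-fold, a difference of -2.03 (SE 0.19; limma adjusted p = 0.000617), and that from E18 to P6 was 4.25-fold, a difference of -2.09 (SE 0.19; limma adjusted p = 0.000536). From P3 to P6 the difference was -0.06 (SE 0.19; limma adjusted p = 0.899). The probe sets 1416158_at and 1436475_at also fell, by 1.46 and 0.92 to P3 and by 1.63 and 1.03 to P6, at levels in the lowest part of the arrays after E18. The other 3 were not called. They were 1431237_at (0.50 from E18 to P3), 1416160_at (-0.44) and 1444229_at (0.04), which read 3.99 to 4.23 on the 6 arrays. The falls of 1416159_at and 1416158_at were called in every alternative that tested them, and that of 1436475_at to P3 was lost only without E18 replicate 1 (-0.86, limma adjusted p = 0.0597).

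The mean levels of several other marker lists were also lower after E18, while the counts of genes called differed between lists and stages. Of all genes, 18.3% were lower at P3 and 12.3% at P6. Astrocyte markers averaged 9.14 on both E18 arrays and 6.49 to 7.81 later, with 7 of 12 lower at P3 and a median of -2.39. Microglia and macrophage markers averaged 8.80 and 8.79 at E18 and 6.36 to 8.46 later, with 6 of 11 lower at P3. At P6, 0 of the 11 were called lower, against 7 of 12 astrocyte markers. Callosal and upper layer markers, a list that holds Rorb, averaged 8.77 and 8.82 at E18 and at most 8.18 later. At P3, 3 of the 9 were lower and 1 was higher, and the higher one was Rorb itself. Interneuron markers averaged 6.82 and 6.85 (E18), 6.17 and 6.28 (P3) and 6.16 and 6.05 (P6), with 6 of 16 lower and 2 higher at P3. Among the 6 were Dlx1, which fell by 2.88, Dlx2, by 2.09, Lhx6, by 2.46, and Sp8, by 1.70, all transcription factors of the ganglionic eminences or their interneurons. Npy and Adarb2 rose. Endothelial and pericyte markers averaged 6.78 and 6.73 at E18 and 6.09 to 6.27 on the later arrays. At P3, 4 of 13 were lower, among them Pdgfrb, which fell by 1.78, and Cldn5, by 1.79. The differences of the 13 at P3 ran from -2.31 to 0.76, with a median of -0.09, against 0.09 for all genes. Oligodendrocyte lineage markers, at 7.32 and 7.30 on the E18 arrays, lay at 6.57 to 7.02 later, with 2 of 9 lower at P3. Their median difference was -0.21 at P3 and 0.14 at P6, against 0.09 and 0.13 for all genes. The part of these cells, and of the progenitors described above, in the Nr2f1 and Nr2f2 differences was not tested.

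Other genes of cortical area patterning, as a list of 28 with 23 measured, were higher at P3 for 6 and lower for 7, with a median of 0.40 against 0.09 for all genes. A gene in such a list is represented by its brightest probe set, for which 30.4% of all genes were called at P3, 12.1% higher and 18.3% lower, and other probe sets of the gene may differ. Those with the smallest p fell: Dmrta2 by 5.39, Lhx2 by 5.51, Emx2 by 4.95 and the growth factor receptor Fgfr3 by 4.42. Emx2 and Lhx2 are transcription factors of cortical progenitors that, like Nr2f1, help to set up areas. At P6 they were still below E18, at differences of -5.10, -5.25, -4.71 and -4.14 for Dmrta2, Lhx2, Emx2 and Fgfr3, and 0 of the 23 were called from P3 to P6.

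The Rorb probe sets gave different pictures: the brightest stood apart at P3, and all 3 were lowest at P6. The brightest (1455799_at) read 6.99 and 7.08 (E18), 8.68 and 8.35 (P3) and 6.40 and 6.86 (P6). P3 stood apart above both other stages, and the E18 and P6 arrays were close, with P6 below. It rose by 1.48 (SE 0.25; limma adjusted p = 0.00641; 2.79-fold) from E18 to P3. From P3 to P6 it differed by -1.88 (SE 0.25; limma adjusted p = 0.185), below the call, and from E18 to P6 by -0.40 (SE 0.25; limma adjusted p = 0.289). The change from P3 to P6 minus the change from E18 to P3 was -3.36 (SE 0.43; limma adjusted p = 0.00595), and this was called in every alternative that ran, at -1.81 for the mean of the 3 probe sets. The rise was not called with the E18 pair averaged (limma adjusted p = 0.068; range over the alternatives 0.00278 to 0.118), nor without E18 replicate 1 (1.43, 0.0727) or E18 replicate 2 (1.52, 0.0624).

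The probe set 1439862_at read 7.33 and 7.54 (E18), 7.79 and 7.12 (P3) and 5.90 and 5.97 (P6). The E18 and P3 arrays overlapped and both P6 arrays lay below. It fell by 1.50 (SE 0.26; limma adjusted p = 0.00769) from E18 to P6, with 0.02 (SE 0.26; limma adjusted p = 0.955) from E18 to P3. The last, 1425162_at, read 7.26 and 7.40 (E18), 7.46 and 6.90 (P3) and 6.40 and 6.58 (P6), also lowest at P6, with -0.15 to P3 and -0.84 (SE 0.24; limma adjusted p = 0.0532) from E18 to P6. When the 3 probe sets were averaged, in a fit without the dimmest 25% of genes, Rorb was not called from E18 to P3 (0.45, limma adjusted p = 0.118) and fell by 0.91 to P6 (limma adjusted p = 0.0149). The fall of 1439862_at to P6 was lost in 4 of its 16 alternatives, whose limma adjusted p ran from 0.000593 to 0.0834. Among the 4 were the E18 pair averaged (-1.50), the fit without E18 replicate 2 (-1.40) and the fit without P6 replicate 1 (-1.46). The highest adjusted p, 0.0834, came from a setting other than these. Without P3 replicate 1, the difference from P3 to P6 was called for 1455799_at (-1.72, limma adjusted p = 0.0212) and for 1439862_at (-1.19, 0.0224). In that setting 18% of all probe sets were called, against 0% with all arrays.

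**Figure D3:**
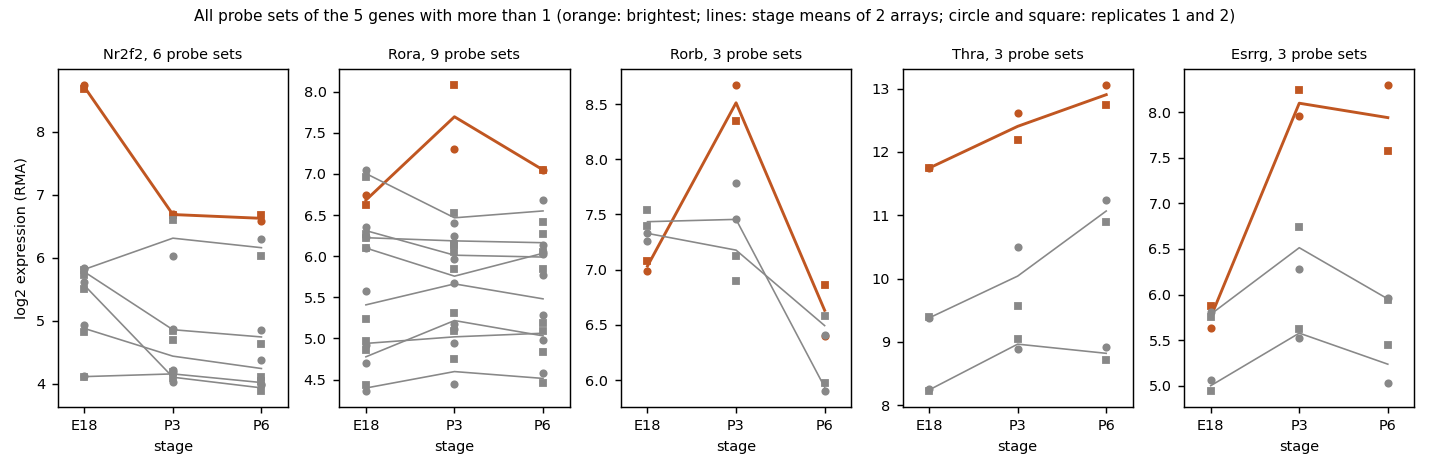
Log2 expression (y axis) of every probe set of the 5 genes with more than 1 by stage (x axis), with lines through stage means of 2 arrays and the brightest probe set in orange. The Rorb probe sets differ at P3 while all 3 are lowest at P6, and 1 of the 9 Rora probe sets rises at P3 while the others lie between -0.54 and 0.44 from E18 to P3.

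Rora, the gene of the related receptor RORα, had 9 probe sets, of which 1 was called. That probe set, the brightest (1441085_at), read 6.74 and 6.62 (E18), 7.31 and 8.09 (P3) and 7.05 and 7.05 (P6). P3 was highest and more scattered than the other stages, with both P6 arrays between E18 and P3. It rose by 1.01 (SE 0.28; limma adjusted p = 0.0387) from E18 to P3 and differed by 0.37 (SE 0.28; limma adjusted p = 0.388) from E18 to P6. The next brightest (1424034_at) read 7.05 and 6.96 (E18), 6.41 and 6.53 (P3) and 6.69 and 6.41 (P6), which is lower after E18. The 8 other probe sets differed by -0.54 to 0.44 from E18 to P3, 4 above 0 and 4 below. The rise was lost in 12 of the 18 alternatives, whose adjusted p ran from 0.00427 to 0.653. It was not called for the mean of the Rora probe sets, in a fit without the dimmest 25% of genes (0.09, limma adjusted p = 0.653), without P3 replicate 2 (0.62, 0.0547), without E18 replicate 1 (1.07, 0.174) or 2 (0.95, 0.232), or without either P6 array (1.01, 0.0706).

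Markers of layer 4, the cortical layer for which Rorb is known, and of the thalamus stood beside these values as follows. Of 18 measured layer 4 list genes, 5 were higher and 3 lower at P3, and 4 higher and 4 lower at P6, with medians of 0.33 and 0.23. Of all genes, 12.1% were higher and 18.3% lower at P3, and 10.2% and 12.3% at P6, with medians of 0.09 and 0.13. Lmo3 rose by 1.52 to P3, while Cux1 fell by 2.05, Unc5d by 2.59 and Cntnap2 by 2.17. Kcnip2, a potassium channel subunit, rose by 2.91 to P6. Thalamic relay markers averaged 6.60 and 6.62 (E18), 6.18 and 6.26 (P3) and 6.00 and 6.22 (P6). At P3, 2 of 9 were called lower, among them the transporter gene Slc17a6, and 0 higher. Gbx2 read 3.92 to 4.28 on all arrays. The differences of the 9 at P3 ran from -3.07 to 0.98, with a median of -0.22. The highest was that of Tcf7l2, which was not called (limma adjusted p = 0.0735). From P3 to P6, Tcf7l2 differed by -1.04 (limma adjusted p = 0.252). Its mean was highest at P3, as were those of Rora 1441085_at and Rorb 1455799_at. The part of layer 4 or thalamic cells in the Rora and Rorb differences was not tested.

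Thra, which encodes the α receptor for thyroid hormone, was the only one of the 9 genes with its brightest probe set highest at P6 and called from E18 to P6 but not from E18 to P3. The probe set (1454675_at) read 11.75 and 11.74 (E18), 12.62 and 12.19 (P3) and 13.06 and 12.75 (P6). The 3 stages did not overlap and the order was E18 below P3 below P6. The difference was 0.66 (SE 0.23; limma adjusted p = 0.0682) from E18 to P3 and 0.50 (SE 0.23; limma adjusted p = 0.349) from P3 to P6, and it rose by 1.16 (SE 0.23; limma adjusted p = 0.012; 2.23-fold) from E18 to P6. The probe set 1426997_at read 9.37 and 9.39 (E18), 10.50 and 9.58 (P3) and 11.24 and 10.89 (P6), again with no overlap, and rose by 1.69 (SE 0.34; limma adjusted p = 0.0139) to P6. The last, 1443952_at, read 8.26 and 8.22 (E18), 8.88 and 9.05 (P3) and 8.92 and 8.72 (P6), with 0.58 (SE 0.22; limma adjusted p = 0.117) to P6.

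The rise of 1454675_at was not called with the E18 pair averaged (1.16, limma adjusted p = 0.107; range over the alternatives 0.000325 to 0.127), without E18 replicate 1 (1.16, 0.104) or 2 (1.16, 0.108), without P6 replicate 1 (1.001, 0.0844), or with the level of the hybridization controls as covariate (0.95, 0.127). Likewise, 1426997_at was not called without E18 replicate 1 (1.68, limma adjusted p = 0.0915) or 2 (1.70, 0.0902), or without P6 replicate 1 (1.51, 0.104) or 2 (1.87, 0.0519). It was also lost with the E18 pair averaged (1.69, limma adjusted p = 0.0917) and with the hybridization controls as covariate (1.44, 0.151), and the range over its alternatives was 0.000189 to 0.151. In the RefSeq annotation of GRCm38.p6, Thra overlaps the protein-coding gene Nr1d1, the clock receptor REV-ERBα. Which probes lie in the shared stretch was not determined here. Nr1d1 read 6.49 and 6.60 (E18), 7.02 and 6.61 (P3) and 8.05 and 7.47 (P6), and rose by 1.22 to P6 (limma adjusted p = 0.0189). Thrb, the β receptor gene (1422202_at), read 5.43 and 5.40 (E18), 5.64 and 6.10 (P3) and 5.33 and 5.77 (P6). The E18 and P3 arrays did not overlap, and P6 overlapped both. Its differences were 0.45 (SE 0.22; limma adjusted p = 0.159) to P3 and 0.13 (SE 0.22; limma adjusted p = 0.694) to P6, and it was not called.

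Of all genes, 12.1% were higher and 18.3% lower at P3, and 10.2% and 12.3% at P6, with medians of 0.09 and 0.13. Of 23 measured genes of thyroid hormone transport, metabolism and targets, 9 were higher and 1 lower at P3, with a median of 0.74. At P6, 9 were higher and 1 lower, with a median of 0.67. The lower gene, Slco1c1, a transporter of thyroid hormone, fell by 5.44 (SE 0.25) to P3, from 11.36 and 11.46 to 5.99 and 5.95, and read 6.01 and 6.57 at P6. Klf9, a target that thyroid hormone induces in neurons, read 8.30 and 8.24 (E18), 11.15 and 11.04 (P3) and 10.96 and 11.24 (P6). Camk4, a calcium-dependent kinase, rose by 3.80 to P3 and Homer1, a scaffold of the synapse, by 1.70. Crym, which binds thyroid hormone in the cytosol, rose by 2.57 to P3 and by 3.95 to P6. From P3 to P6, 0 of the 23 were called. The progenitor and astrocyte lists described above fell as Slco1c1 did, and general neuron markers rose. The part of such cells in the differences of this list was not tested.

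Of the 2 retinoid receptors, Rxrg was called and Rarb was not. Rxrg (1418782_at), whose protein RXRγ pairs with many other receptors, read 6.93 and 6.75 (E18), 5.77 and 5.86 (P3) and 6.30 and 6.02 (P6). The stages did not overlap, with E18 highest and P3 lowest. It fell by 1.03 (SE 0.19; limma adjusted p = 0.00886; 2.04-fold) from E18 to P3 and by 0.68 (SE 0.19; limma adjusted p = 0.0427) from E18 to P6, and the difference from P3 to P6 was 0.35 (SE 0.19; limma adjusted p = 0.412). Neither fall was called with the E18 pair averaged (-1.03, limma adjusted p = 0.0869 at P3; -0.68, 0.275 at P6; ranges over the alternatives 0.00258 to 0.107 and 0.014 to 0.348), without E18 replicate 1 (-0.94, 0.107; -0.59, 0.348) or without E18 replicate 2 (-1.12, 0.0684; -0.77, 0.209). The fall to P6 was also lost without P6 replicate 1 (-0.82, limma adjusted p = 0.054) or 2 (-0.54, 0.11). Its promoter is the one printed above with AAGGTCA, and a link between that match and these differences was not tested.

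Rarb (1454906_at), the gene of RARβ with the repeat shown above, read 6.00 and 6.07 (E18), 5.75 and 6.06 (P3) and 5.55 and 5.46 (P6). P6 was lowest, and the E18 and P3 arrays overlapped. The difference was -0.13 (SE 0.17; limma adjusted p = 0.569) to P3, and -0.53 (SE 0.17; limma adjusted p = 0.0732) from E18 to P6. The latter was called in 8 alternatives, among them without P3 replicate 1 (-0.53, limma adjusted p = 0.0304) and without P3 replicate 2 (-0.53, 0.0298), over a range of 0.0298 to 0.422. Of 20 measured genes of retinoid synthesis, binding, breakdown and targets, 7 were higher and 1 lower at P3, with a median of 0.39. At P6, 3 were higher and 1 lower. Of all genes, 12.1% were higher and 18.3% lower at P3, with a median of 0.09, and 10.2% and 12.3% at P6. Foxp2 rose by 2.44 and Foxp1 by 1.65 to P3, both transcription factor genes that are also markers of deep layer or striatal neurons. Fabp5, which carries fatty and retinoic acids, rose by 0.74, and Aldh1a1, a retinaldehyde dehydrogenase, rose by 1.16 from a low level, 4.05 and 3.93. Crabp1, which binds retinoic acid, was the gene that fell to P3, by 0.62, and Meis2 fell by 2.005 to P6.

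Esrrg, the gene of ERRγ, rose between E18 and P3 and stayed above E18 at P6. The brightest probe set (1455267_at) read 5.63 and 5.87 (E18), 7.95 and 8.24 (P3) and 8.30 and 7.58 (P6). The E18 arrays lay far below the other 4, and the P3 pair lay between the P6 pair. It rose by 2.34 (SE 0.29; limma adjusted p = 0.00195; 5.08-fold) from E18 to P3 and by 2.19 (SE 0.29; limma adjusted p = 0.0025; 4.55-fold) to P6. Both rises were called in all 18 alternatives, with adjusted p up to 0.0327 and 0.03, but they were smaller for the mean of the Esrrg probe sets, in a fit without the dimmest 25% of genes: 1.22 to P3 and 0.86 to P6 (limma adjusted p = 0.00101 and 0.00425). From P3 to P6 the difference was -0.16 (SE 0.29; limma adjusted p = 0.815).

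The second Esrrg probe set (1421747_at) peaked at P3. It read 5.81 and 5.75 (E18), 6.28 and 6.75 (P3) and 5.96 and 5.94 (P6), so all 3 stages were apart and P6 was much closer to E18. It rose by 0.73 (SE 0.20; limma adjusted p = 0.0368) to P3 and differed by 0.17 (SE 0.20; limma adjusted p = 0.572) from E18 to P6. The rise was lost with the E18 pair averaged (0.73, limma adjusted p = 0.221; range over the alternatives 0.00795 to 0.242), without E18 replicate 1 (0.76, 0.196) or 2 (0.70, 0.242), without P3 replicate 2 (0.50, 0.0688) and without either P6 array (0.73, 0.0596). The last, 1457896_at, differed by 0.58 to P3 and was not called, at 5.06 and 4.94 on the E18 arrays, below the lower quartile of those arrays (5.41 and 5.40). General neuron markers, which averaged 9.48 and 9.53 at E18 and 11.11 to 11.26 later, moved the same way as Esrrg, and their part in its rise was not tested.

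**Figure D4:**
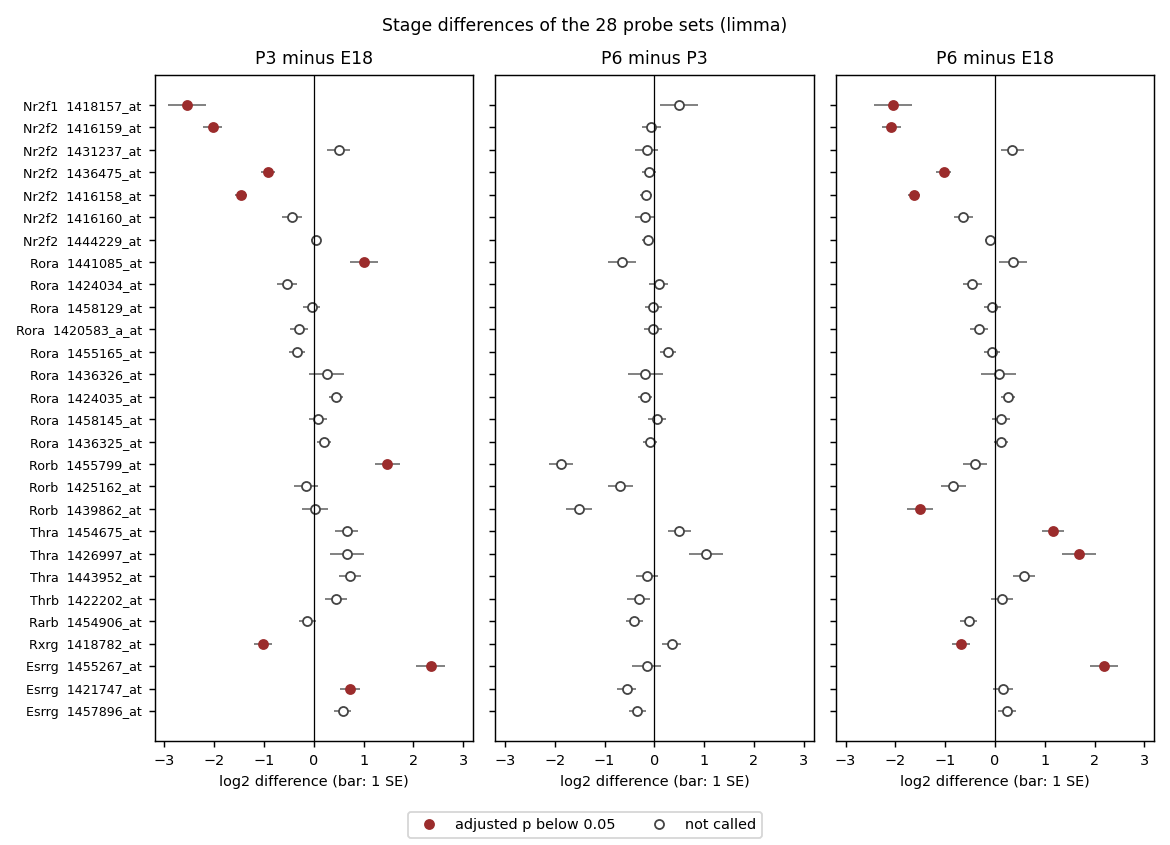
Log2 difference (x axis, bar 1 SE) of each of the 28 probe sets in the 3 comparisons, with filled points where the limma adjusted p is below 0.05. Filled points number 9 from E18 to P3 and 9 from E18 to P6, and 0 from P3 to P6, where the Rorb probe sets lie lowest.

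Of 35 other nuclear receptor genes measured, 5 were higher and 5 lower at P3, against 12.1% and 18.3% of all genes. At P6, 4 were higher and 2 lower, against 22.5% of all genes called, 10.2% higher and 12.3% lower. The median differences were 0.29 and 0.28, against 0.09 and 0.13 for all genes. Nr2e1, the orphan receptor TLX of neural stem cells, fell by 5.87 to P3, with readings of 10.10 and 10.18 (E18), 4.04 and 4.51 (P3) and 4.17 and 4.42 (P6). Nr2f6, a further relative of the COUP-TF genes, fell by 1.42 to P3 and differed by -0.37 from E18 to P6. The sex steroid receptors Esr1 and Pgr rose to P3, by 1.81 and 2.53, and Nr4a3, an activity-induced orphan receptor, rose by 2.69 to P6.

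Among 23 measured coregulators, the proteins that receptors recruit to activate or repress genes, 3 were higher and 3 lower at P3. At P6, 5 were higher and 3 lower. Of all genes, 12.1% were higher and 18.3% lower at P3, and 10.2% and 12.3% at P6. Sin3a, a scaffold of a histone deacetylase complex, fell by 1.94 to P3. Lcor rose by 1.42, Bcl11a, a zinc finger partner of COUP-TF proteins, by 1.04 and the coactivator gene Ncoa3 by 0.77. Ppargc1b, which encodes a coactivator of ERR proteins, rose by 1.77 to P6. Its relative Ppargc1a, on the same list, went the other way, at -1.66 to P3 and -1.10 from E18 to P6, and was not called.

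**Figure D5:**
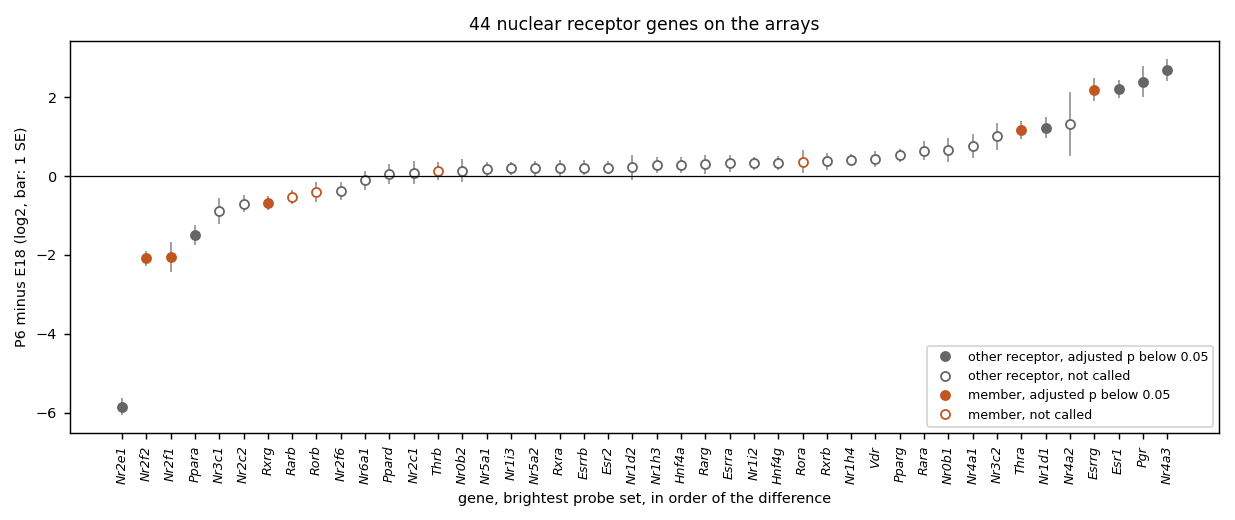
P6 minus E18 in log2 units (y axis, bar 1 SE) for the brightest probe set of the 9 genes (orange) and of the 35 other receptor genes measured (grey), ordered by the difference; filled points passed the limma adjusted p of 0.05. Nr2e1 is lowest, next to Nr2f2 and Nr2f1, and Nr4a3, Pgr, Esr1 and Esrrg are highest.

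For each of the 9 genes, the 2 genes of other symbols with the most alike profile were found by the root mean square distance over the 6 arrays, each brightest probe set centred on its own mean. The nearest of all was Dennd2a, 0.015 log2 units from Nr2f2, with Pmf1 next at 0.066, where Nr2f2 itself varied by 0.97 about its mean. Nr2f1 was nearest to Wdr90 (0.13) and Efnb1 (0.14), the ephrin B1 gene, with a spread of 1.16. Esrrg was nearest to Nwd2 and Neto1 (both 0.15), where Neto1 encodes an auxiliary subunit of glutamate receptors, with a spread of 1.10. Rorb had the most distant neighbours, Tet1 and Slco5a1 (both 0.29), at a spread of 0.82. Thra was nearest to Rnf130 (0.066) and Map2k4 (0.072), and Rxrg to Ddx20 (0.070) and Tubd1 (0.075). Rora, Thrb and Rarb were nearest to Lce1i, Plagl2 and Acot8, at 0.038, 0.046 and 0.043, with Cyp2d26, Prox2 and Pyroxd1 next. With 6 arrays and 18193 genes these distances are a description.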

How the data were processed

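Per the submitters' processing notes, the authors made the deposited log2 values with RMA, which corrects background, normalizes and summarises probe sets; its version is not given in the sources used here, nor is whether the 6 arrays were run together. The platform annotation gave the gene names, with 1 symbol for 34945 of 45101 probe sets. All 28 Entrez IDs of the members were found in RefSeq with the same symbol. No read depth exists for arrays, and their number limits the precision.

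limma 3.58.1 (R 4.3.3) was run on the deposited log2 values with a mean for each stage and all 34945 probe sets, with no filter, 3 residual degrees of freedom and an intensity trend; p-values were adjusted by Benjamini-Hochberg over all probe sets. There were 18 alternatives: filters, scaling, gene summaries, array weights, covariates, a replicate block and arrays left out. Members, lists and alternatives were chosen with earlier results of these data known. Named genes were all members, up to 4 genes a list and comparison with the smallest p, the 2 nearest profiles per member, and marker genes that a result turns on. Other names were chosen after their values were seen. These include Crabp1, Ppargc1a, the single interneuron, endothelial and thalamic markers named, and the striatal genes of the closing section.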

Additional observations from a re-analysis of the deposited data

Results flagged for a closer look

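The change from P3 to P6 minus the change from E18 to P3 was called by limma for 6 of the 28 probe sets, against 12.1% of all probe sets. For the 4 values above 0 below, the probe set fell from E18 to P3, and for the 2 below 0 it rose. Both intervals share the P3 arrays, so the P3 level enters both with opposite signs. The change from P3 to P6 was only -0.06 and -0.17 for the 2 Nr2f2 probe sets and -0.16 for Esrrg. For these, the value largely repeats the step from E18 to P3 with its sign reversed and is not a separate result.

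For Nr2f1 (1418157_at) the difference of the intervals was 3.04 (limma adjusted p = 0.0343). For Nr2f2 it was 1.97 (limma adjusted p = 0.0155) on 1416159_at and 1.29 (limma adjusted p = 0.0147) on 1416158_at. For Rxrg it was 1.37 (limma adjusted p = 0.0402). For Rorb (1455799_at) it was -3.36 (limma adjusted p = 0.00595), and for Esrrg (1455267_at) -2.50 (limma adjusted p = 0.0254). Of these, only that of Rorb was called in every alternative that ran. With the mean of a gene's probe sets and the dimmest 25% of genes left out, the values were smaller: -1.81 for Rorb and -1.57 for Esrrg (limma adjusted p = 0.0169 and 0.00842; over all alternatives, 0.00257 to 0.0326 and 0.00842 to 0.113). With the E18 pair averaged, the adjusted p of the other 5 lay at or above 0.0656. None of the 6 was called from P3 to P6 in limma with all arrays, with adjusted p from 0.185 upward.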

How the results depend on the processing

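Alternatives were followed for 16 of the 28 probe sets (the brightest of each gene, those called, and all of Rorb and Thra) in 4 comparisons, and the rest entered only the counts of calls. Of 1056 alternative values, 912 kept their direction and side of the threshold, 86 lost a call, 43 gained one and 15 changed sign. The member calls lean on the closeness of the E18 pair, and most of the 24 were lost when that pair was averaged. The 24 span the 4 comparisons and include 6 for the difference of the intervals.

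From E18 to P3, 9981 probe sets were called. It fell to 3097 when the E18 pair counted as 1 array and to 3406 with a covariate for the hybridization controls. With the dimmest 25% of genes left out as well, it was 5629 for the brightest probe set per gene and 5723 for the mean of a gene's probe sets (13644 genes tested in both). It was 3052 to 16480 when an array was left out. From P3 to P6 it was 0, and 0 to 6277 when an array was left out, the highest without P3 replicate 1. From E18 to P6 the count of 7389 became 3098 (E18 averaged), 3800 (hybridization controls), 4320 (brightest, dimmest 25% out), 4505 (mean, dimmest 25% out), 11842 (array weights) and 3064 to 10983 (an array left out). For the difference of the intervals, 4236 became 1118, 1434, 2755 (array weights) and 1092 to 12723. For the F-test, 8405 became 2568, 2843, 5282, 5374, 13904 and 2514 to 17101, in the same order of settings. Of the probe sets called for the difference of the intervals, 73.1% were above 0, and 60.9% with quantile normalization.

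Sign changes occurred for differences that were not called. They were Rorb 1425162_at from E18 to P3 (0.090, 18S covariate), Rorb 1439862_at from E18 to P3 (-0.057, array medians subtracted), and the difference of the intervals for Thra 1454675_at (0.099, hybridization controls) and Thra 1426997_at (-0.41, quantile normalization); the cause was not tested. With an array left out, the range was -0.068 to 1.06 for Nr2f1 from P3 to P6, -0.52 to 0.20 for Esrrg 1455267_at from P3 to P6, -0.43 to 0.13 for Rorb 1425162_at and -0.31 to 0.35 for Rorb 1439862_at from E18 to P3. It was -0.28 to 0.023 for Rarb from E18 to P3 and -0.091 to 0.36 for Thrb from E18 to P6. For the difference of the intervals it was -1.09 to 0.025 for Rorb 1425162_at, -0.59 to 0.27 for Thra 1454675_at, -0.56 to 1.30 for Thra 1426997_at and -0.58 to 0.032 for Rarb.

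The replicate numbers did not pair the arrays: deviations of same-numbered arrays correlated at -0.17, 0.05 and -0.24 across the 3 pairs of stages. With the replicate block, 8092 probe sets were called from E18 to P3, 6481 from E18 to P6, 0 from P3 to P6, and 3126 for the difference of the intervals; among the members 4 calls were lost: Rora 1441085_at (1.01, limma adjusted p = 0.0506), Esrrg 1421747_at (0.73, 0.0564), Rxrg from E18 to P6 (-0.68, 0.075) and Rxrg for the difference of the intervals (1.37, 0.0679).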

Other observations

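Striatal projection neurons also express several of these receptors, and their markers were read on the same arrays. The list averaged 7.01 and 7.08 (E18), 7.64 and 7.40 (P3) and 7.54 and 7.53 (P6), with 4 of 10 genes higher and 2 lower from E18 to P3. Of all genes, 12.1% were higher and 18.3% lower in that interval. The genes named here were chosen after their values were seen. Drd1, a dopamine receptor gene, read 6.65 and 6.73 (E18), 10.54 and 9.58 (P3) and 9.99 and 10.31 (P6), and Ppp1r1b, its downstream phosphoprotein, rose by 2.06 to P3. Tac1, the gene of substance P, fell by 3.38. Microglia and macrophage markers read 8.80 and 8.79 (E18), 6.36 and 7.11 (P3) and 6.91 and 8.46 (P6), and P6 replicate 2 stood closest to E18. Nr2f1 read 9.72 and 8.60 on the P6 pair, which also differed in hybridization controls (13.01 and 9.85). A link between these values was not tested.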
